A study of Mus musculus with 6 samples.

Results

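Antibody genes are built from separate variable (V), diversity (D), joining (J) and constant (C) segments, and the segments of the mouse heavy, kappa and lambda chains lie on chromosomes 12, 6 and 16. The probes described here are all those whose annotation lists at least 1 variable, diversity, joining or light-chain constant segment, with the constant region of IgM (Ighm) left out. This gave 25 of the 35421 probes of the array: 4 for the heavy locus, 19 for kappa and 2 for lambda. No probe listed segments of more than 1 locus. The cells were pre-B cells from Balb/c mice aged 4 weeks, transformed with the leukemia kinase BCR-ABL1 and labelled as Blnk knockout, and this background was shared by both groups. Of 6 samples, 3 had been transduced with pMIG, a retroviral vector carrying GFP, and 3 with Blnk (Slp65). RNA came from GFP-positive cells sorted 5 days later, with 1 array per sample. Nothing in the labels says if the 3 samples of each group were separate cultures or mice. The p-values therefore speak of the spread among these arrays, and that spread may be technical.

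A developing B cell first assembles a heavy chain and pairs it with the surrogate light chain, made of VpreB and lambda 5, into the pre-B cell receptor. That receptor signals through the kinase SYK and the adaptor BLNK, and its signal is known to be followed by transcription of the unrearranged light-chain loci and then by their recombination. Mouse B cells draw most of their light chains from kappa and few from lambda. An expression probe that lies in a V or C segment can read a germline transcript or a rearranged one, and these arrays do not tell the 2 apart.

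The annotated segments are a small part of the loci. In a RefSeq table of mouse genes (assembly GRCm38.p6, read for names and gene order only), the heavy locus holds 208 such segments, of which 3 are listed on a member probe. The kappa locus holds 168, of which 21 are listed, and the lambda locus 12, of which 3 are listed. Of the heavy segments listed, 2 are V segments and 1 is a V pseudogene. The kappa set is made of 18 V segments, 1 V pseudogene (Igkv4-77), the joining segment Igkj1 and the constant region Igkc. The lambda set is made of Iglv1, Iglv2 and the constant region Iglc1. Only 9 probes, all for kappa, list a single symbol, so most probes are named here by their number and the symbols they list, and no level is assigned to 1 segment of several. The 25 probes are not independent readings, since 15 of them share at least 1 listed transcript accession with another member. Differences in level between probes were not read as differences in transcript amount, because each probe has its own response.

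Blnk itself rose in the samples that received it, with intensities of 926 to 1013 on the pMIG arrays and 2714 to 3342 on the Blnk arrays (limma log2 fold change 1.64, adjusted p = 0.00225). The signal on the pMIG arrays does not check the knockout, because the sources used here do not say which part of Blnk the probe reads. Median array intensity was 67 to 70. Of the B-lineage marker list, 11 of 12 genes had a value, and all 11 lay above the mean array median. At a limma adjusted p under 0.05, 1 of them rose (Blk) and 1 fell (Vpreb1), where 1.36% of all genes rose and 0.552% fell. Blk did not pass without pMIG 2 or pMIG 3, and Vpreb1 did not pass whichever array was left out. The summed intensity of the 11 was 36736 to 38457 on the pMIG arrays and 39379 to 40509 on the Blnk arrays. Over all probes, 366 were higher and 136 lower with Blnk at an adjusted p under 0.05 (273 higher and 162 lower when quantile normalization was repeated).

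Lambda light-chain signal rose with Blnk, with log2 fold changes of 1.83 and 2.05 on the 2 lambda probes. Of the 25 probes, 3 rose and 0 fell: both lambda probes and 1 kappa probe, Igkv10-96. At an unadjusted p under 0.05, 5 were higher and 0 lower by the same limma fit, where 8.38% of all probes were higher and 4.60% lower. Over all probes of the array 1.03% rose and 0.384% fell, and 1.42% passed in either direction. The median log2 fold change was 0.15 over the 25 probes and 0.01 over all probes tested. The values of Blnk and pMIG did not overlap for 6 of the 25 probes, each with Blnk higher, where 11.0% of all probes had every Blnk array above every pMIG array and 6.71% had every one below.

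**Figure D1:**
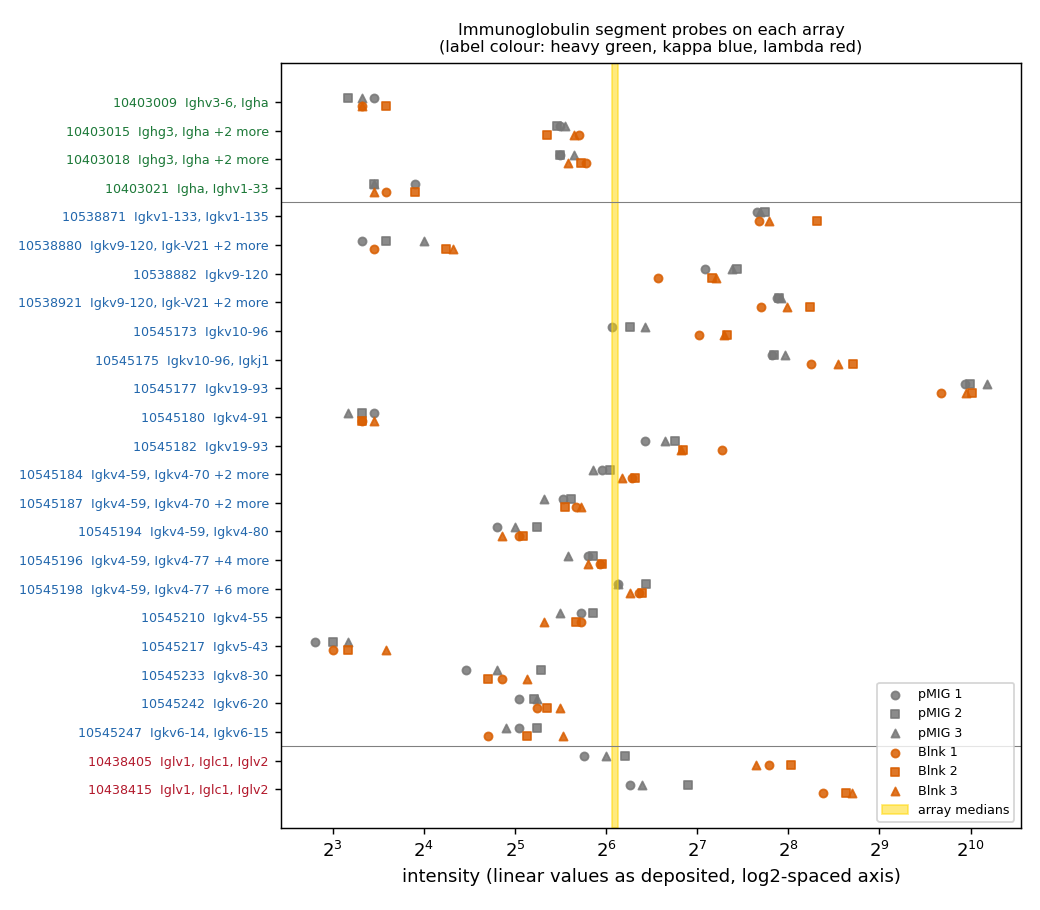
Intensity of the 25 segment probes on each of the 6 arrays (horizontal axis, linear intensity on a log2-spaced scale), with pMIG arrays in grey and Blnk arrays in orange and the range of array medians as a yellow band. Both lambda probes at the bottom show 3 Blnk arrays to the right of 3 pMIG arrays, and the 4 heavy probes at the top lie to the left of the band.

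Both lambda probes list the same symbols, Iglv1, Iglc1 and Iglv2. Iglv1 and Iglv2 encode lambda variable regions and Iglc1 a lambda constant region. In the order of the gene table the locus reads Iglc1, Iglj1, Iglc3, Iglj3p, Iglj3, Iglv1, Iglc4, Iglj4, Iglc2, Iglj2, Iglv3 and Iglv2, with Iglc1 at 1 end and Iglv2 at the other. The 2 probes list 4 accessions each and share 1 of them.

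Probe 10438405 read intensities of 54, 74 and 64 on pMIG arrays 1 to 3 and of 221, 262 and 200 on the Blnk arrays. Every Blnk array stood above every pMIG array. The mean went from 64.0 ± 10.0 to 228 ± 31.5 (SD, n = 3), which is 3.56-fold (limma log2 fold change 1.83, SE 0.151, adjusted p = 0.00691). The pMIG level lay near the array medians, and the Blnk level was well above them. That pMIG level is not shown to be above background, so the fold change describes probe signal and does not measure the change in transcripts.

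Probe 10438415 read 77, 119 and 84 on the pMIG arrays and 332, 398 and 417 on the Blnk arrays. Here too the groups were apart, and pMIG 2 was the highest pMIG array for both lambda probes. The mean went from 93.3 ± 22.5 to 382 ± 44.6 (SD, n = 3), a 4.15-fold rise (limma log2 fold change 2.05, SE 0.184, adjusted p = 0.00877). The pMIG level of probe 10438415 is not shown to be above background either, so its fold change also describes probe signal. By size of rise the 2 lambda probes ranked 28 and 20 among all 35421 probes.

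The rise of the lambda probes held its size when any 1 array was left out, with log2 values of 1.72 to 1.94 for probe 10438405 and of 1.93 to 2.24 for probe 10438415. The calls were less steady. Probe 10438405 did not pass without pMIG 3 (limma adjusted p = 0.0611) and passed when any other array was left out. Probe 10438415 passed without pMIG 2 (0.0202) or Blnk 1 (0.0417) and not without pMIG 1 (0.0517), pMIG 3 (0.0695), Blnk 2 (0.0737) or Blnk 3 (0.0628).

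**Figure D2:**
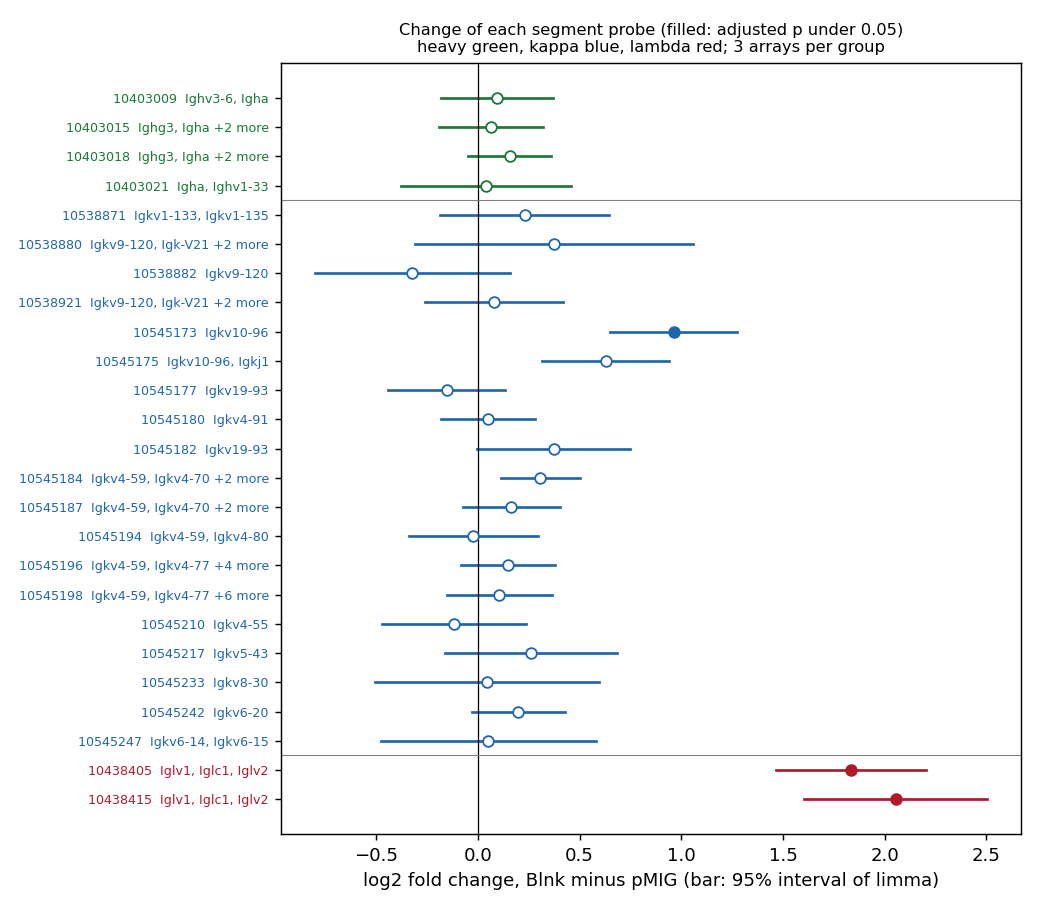
Log2 fold change, Blnk minus pMIG, of each of the 25 segment probes with its 95% interval from limma (3 arrays per group), coloured by locus and filled where the adjusted p was under 0.05. The intervals of both lambda probes start at 1.46 and 1.60, above the highest upper bound of any heavy (0.46) or kappa (1.28) probe.

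Among the kappa probes, Igkv10-96 was the one that rose. Probe 10545173, which lists this V segment alone, read 67, 77 and 86 on the pMIG arrays and 130, 161 and 157 on the Blnk arrays, so that the groups did not overlap. Its mean went from 76.7 ± 9.50 to 149 ± 16.9 (SD, n = 3), a 1.95-fold rise (limma log2 fold change 0.96, SE 0.128, adjusted p = 0.0314). Whichever array was left out, it no longer passed, with limma adjusted p from 0.0582 without Blnk 1 to 0.140 without Blnk 2. Its log2 value stayed between 0.87 and 1.06. The pMIG level of this probe is not shown to be above background, so its fold change describes probe signal.

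Probe 10545175 lists Igkv10-96 together with Igkj1, the joining segment next to the kappa V segments. It read 226, 229 and 249 with pMIG and 304, 418 and 374 with Blnk. The groups were again apart, and Blnk 1 was the lowest Blnk array on both Igkv10-96 probes. The log2 fold change was 0.63 (SE 0.127, 95% interval 0.32 to 0.94), which did not pass (limma adjusted p = 0.0970). All 4 accessions listed for probe 10545173 are also listed for this probe, so the 2 readings overlap in what they detect and are not separate evidence. No other joining segment is listed on a member probe.

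The kappa constant region, which every kappa transcript that has been spliced to it carries, is listed on 4 probes, each with several Igkv4 segments. None of the 4 passed. Their log2 fold changes were 0.31, 0.16, 0.15 and 0.11, with 95% intervals that together span -0.15 to 0.50. Probe 10545184 had the largest change, with 62, 66 and 58 on the pMIG arrays and 78, 80 and 72 on the Blnk arrays. Its groups were apart and its interval ran from 0.11 to 0.50, but it did not pass over all probes (limma adjusted p = 0.174). The remaining probes of this kind had overlapping groups. Probe 10545187 read 46, 49 and 40 with pMIG against 51, 47 and 53 with Blnk. Probe 10545196 read 56, 58 and 48 against 61, 62 and 56, and probe 10545198 read 70, 87 and 70 against 82, 84 and 77. These 4 probes stood near the array medians in both groups, between intensities of 40 and 87, and they share most of their listed V segments. Which of the listed segments each of them reads is not known here, and they are not shown to be above background. Their intervals thus describe probe signal and set no limit on a change in transcripts of the kappa constant region.

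The 2 probes that list only Igkv19-93 did not move alike. Probe 10545177 was the brightest member, at 980, 1019 and 1159 with pMIG and 818, 1037 and 990 with Blnk. Its groups overlapped, and the log2 fold change was -0.15 (95% interval -0.44 to 0.13; limma adjusted p = 0.668). Probe 10545182 read 86, 108 and 100 against 155, 115 and 113. Its groups were apart by a small margin, Blnk 1 stood above the other Blnk arrays, and the log2 fold change of 0.37 did not pass (limma adjusted p = 0.388). The 1 accession listed for the first is also listed for the second.

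V segments at the far end of the kappa locus from the joining segments gave 4 of the probes, and none passed. Probe 10538871, which lists Igkv1-133 and Igkv1-135, read 201, 215 and 207 with pMIG and 205, 318 and 221 with Blnk, with Blnk 2 the highest array, Blnk 3 just above the pMIG range and Blnk 1 within it. Probe 10538921, which lists Igkv9-120, Igkv1-117, an older kappa V name (Igk-V21) and the kinase gene Map3k20, read 235, 238 and 243 against 208, 303 and 254. Blnk 2 was again the highest, and without it the log2 fold change of 0.08 changed sign to -0.05. Probe 10538882, for Igkv9-120 alone, had the lowest log2 fold change of the 25, at -0.32 (95% interval -0.80 to 0.16), with 136, 173 and 167 against 95, 143 and 148. Probe 10538880, with the same 4 symbols as 10538921, was dim, at 10, 12 and 16 with pMIG and 11, 19 and 20 with Blnk (log2 fold change 0.37, 95% interval -0.31 to 1.06). How much of the signal of the 2 probes that list Map3k20 belongs to that gene was not tested.

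The other 7 kappa probes list Igkv4-91, Igkv4-59 with Igkv4-80, Igkv4-55, Igkv5-43, Igkv8-30, Igkv6-20, and Igkv6-14 with Igkv6-15. Their log2 fold changes lay between -0.12 (Igkv4-55) and 0.26 (Igkv5-43), with none past the threshold, and none had its groups fully apart. All 7 were below the array medians on every array. The probe for Igkv6-20, for example, read 33, 37 and 38 with pMIG and 38, 41 and 45 with Blnk. That for Igkv8-30 read 22, 39 and 28 against 29, 26 and 35, with the pMIG arrays farther apart than the group means.

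Over the whole kappa locus, 1 of 19 probes rose and 0 fell, where 1.03% of all probes rose and 0.384% fell. Of the 19, 15 had a log2 fold change above 0 and 4 below, and the median was 0.15. Over all 35421 probes, 18461 were above 0 and 16960 below. Without the 2 Igkv10-96 probes the median over the other 17 was 0.11, and their log2 fold changes ran from -0.32 to 0.37. Blnk arrays were not level among themselves. Blnk 2 was the highest Blnk array on 9 of the 19 kappa probes, Blnk 3 on 8 and Blnk 1 on 2, ties included. Of the pMIG arrays, pMIG 2 was the highest on 11, pMIG 3 on 7 and pMIG 1 on 1.

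**Figure D3:**
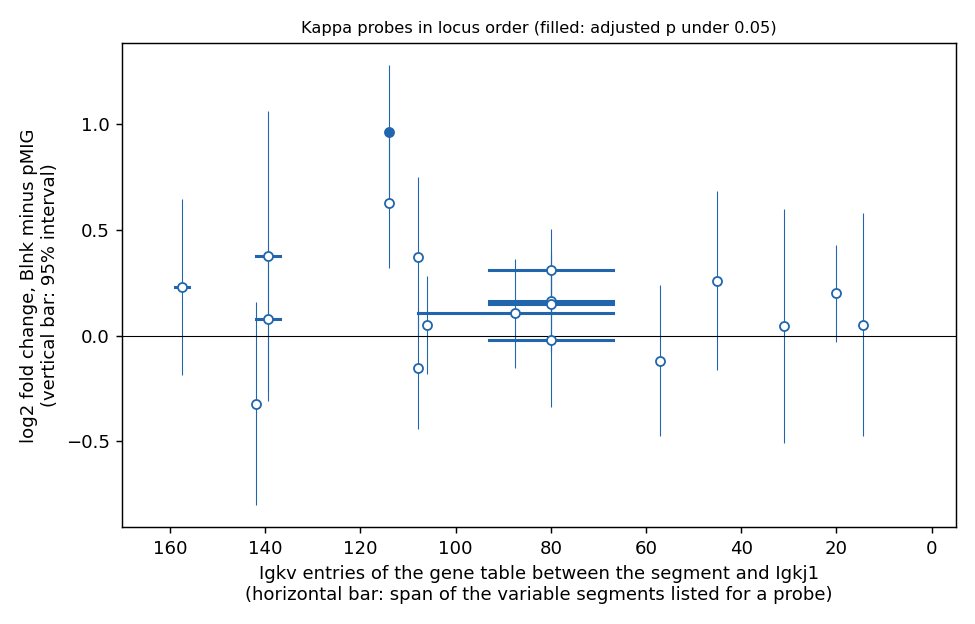
Log2 fold change of the 19 kappa probes (vertical axis, with 95% intervals) against the number of Igkv entries of the gene table that lie between the listed segment and Igkj1 (horizontal axis, nearest to Igkj1 on the right; a horizontal bar spans the V segments listed for a probe). The 2 highest points, at 114 entries from Igkj1, are the Igkv10-96 probes at 0.96 and 0.63, and the probes on either side of them lie between -0.32 and 0.37.

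The gene table lists 162 Igkv entries, all on 1 side of Igkj1. Igkv10-96 has 114 of them between itself and Igkj1, and Igkv19-93, the nearest listed segment on the side towards Igkj1, has 108. Probes for the segments nearest to Igkj1, Igkv6-14 with Igkv6-15, have at most 15 in between and stood at 0.05. The probe farthest away, with Igkv1-133 and Igkv1-135, stood at 0.23. The gene table describes a C57BL/6J assembly, and the cells were Balb/c, so the order and number of segments in these cells may differ.

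None of the 4 heavy-chain probes passed, and all were dim. Each lists at least 1 heavy constant region (Igha, of IgA, or Ighg3, of IgG3) beside the V segments Ighv3-6, Ighv1-26 or Ighv1-33, the last of these a pseudogene in the table. Intensities of the 4 lay between 9 and 55 on all arrays, below the array medians. Probe 10403018, with Ighg3, Igha, Ighv1-33 and Ighv1-26, had the largest change, with 45, 45 and 50 against 55, 53 and 48 (log2 fold change 0.16, 95% interval -0.05 to 0.36; limma adjusted p = 0.514). Probe 10403015 lists the same symbols, shares 9 accessions with it, and read 45, 44 and 47 against 52, 41 and 50 (log2 fold change 0.07). Probe 10403009 (Ighv3-6 and Igha) read 11, 9 and 10 against 10, 12 and 10, and probe 10403021 (Igha and Ighv1-33) read 15, 11 and 11 against 12, 15 and 11. Whole-number rounding is a large step at such levels. The intervals of the 4 together run from -0.38 to 0.46. At these levels the probes are not shown to be above background, so the intervals describe probe signal and set no limit on a change in the transcripts. No D or heavy J segment is listed on a probe. The brightest single-symbol probe of Ighm, the heavy chain of the pre-B cell receptor, stood near the array medians. It read 67, 69 and 66 with pMIG against 74, 78 and 71 with Blnk and did not pass (log2 fold change 0.14, limma adjusted p = 0.444).

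**Figure D4:**
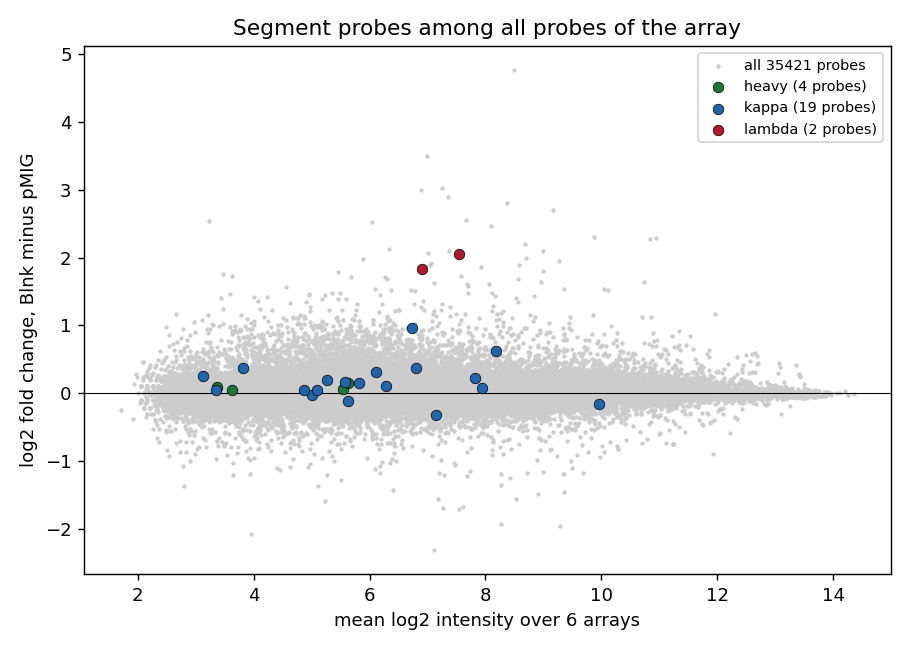
Log2 fold change, Blnk minus pMIG (vertical axis), against mean log2 intensity over the 6 arrays (horizontal axis) for all 35421 probes in grey, with the 4 heavy, 19 kappa and 2 lambda probes in colour. The lambda probes stand above the cloud of probes of like intensity at 1.83 and 2.05, and the heavy probes sit inside it.

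Lambda 5 (Igll1) and the VpreB proteins resemble lambda chains, so their changes were set beside those of the lambda probes. Igll1 read 10104, 10559 and 10793 with pMIG and 9313, 8968 and 9383 with Blnk, lower on every Blnk array, and did not pass (limma log2 fold change -0.19, adjusted p = 0.286). Vpreb1 fell, from 1624, 1748 and 1867 to 956, 1167 and 1146 (log2 fold change -0.68, limma adjusted p = 0.0452), although it no longer passed whichever array was left out (adjusted p 0.0900 to 0.183). Vpreb2 stood at -0.22 (limma adjusted p = 0.221). Vpreb3 was higher on every Blnk array, at 5376, 5317 and 5728 against 4685, 4497 and 4698, and did not pass (limma log2 fold change 0.24, adjusted p = 0.179). Of these 4 genes, Vpreb3 thus had the sign of the lambda probes and the other 3 the opposite sign. Of the 10 genes listed for the pre-B cell receptor, surrogate light chain and proximal signalling, 2 rose (Blnk, the transduced gene itself, and Syk) and 1 fell (Vpreb1), with a median of 0.24. Over all 19938 genes with a single-symbol probe, 1.36% rose and 0.552% fell. Syk, the kinase upstream of BLNK, rose by 0.57 (limma adjusted p = 0.0232) and, with 1 array left out, passed without Blnk 1 only.

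Of 32 genes listed as transcription factors of light-chain loci, 30 had a value, and 3 rose and 0 fell, against the same 1.36% and 0.552% of all genes. Their median was 0.07. Spib, an ETS factor that can take the place of PU.1, rose most, from 1223, 1331 and 1232 to 2381, 2943 and 2950 (log2 fold change 1.12, limma adjusted p = 0.0102). Irf4, which acts with PU.1 or SPIB at light-chain enhancers, rose from 1430, 1555 and 1501 to 1972, 1970 and 1988 (0.40, adjusted p = 0.0464). Pou2f2 (OCT2), which binds the octamer motif of immunoglobulin promoters, rose from 183, 187 and 182 to 246, 268 and 255 (0.48, adjusted p = 0.0305). With 1 array left out, Spib passed only without Blnk 1, and Irf4 and Pou2f2 did not pass whichever array it was (limma adjusted p 0.122 to 0.179 and 0.0683 to 0.144). Spi1, which encodes PU.1, stood at 0.28 and did not pass (limma adjusted p = 0.193).

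None of the listed genes of the recombination machinery passed. Of 15 listed genes 14 had a value, and by limma 0 rose and 0 fell (median -0.03), where 1.36% of all genes rose and 0.552% fell. At an unadjusted p under 0.05 by the same fit 0 were higher or lower, where 8.38% of all probes were higher and 4.60% lower. With so few genes, counts of 0 are little different from those shares. Rag1, which cuts at the recombination signals together with Rag2, read 33, 25 and 31 against 35, 28 and 31. Rag2 read 17, 14 and 18 against 11, 13 and 15 (log2 fold change -0.33, limma adjusted p = 0.429). Both were dim.

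Segments of the T cell receptor loci are the closest counterpart on the array. They had 52 probes, with 41 distinct sets of values, of which 0 rose and 1 fell (0.384% of all probes fell), with a median of -0.08. At an unadjusted p under 0.05, 1 was higher and 16 were lower, where 8.38% and 4.60% of all probes were. Every Blnk array lay below every pMIG array on 16 of them and above on 2, where the shares of all probes were 6.71% and 11.0%. With identical sets of values counted once, 12 of 41 were lower at an unadjusted p under 0.05 and 12 had all Blnk arrays below. The 1 that fell was Trgv1, a gamma V segment, from 143, 121 and 153 to 56, 54 and 45 (limma log2 fold change -1.43, adjusted p = 0.00845; not past the threshold without pMIG 1, pMIG 3 or Blnk 2). The difference between the immunoglobulin and the T cell receptor probes was not tested.

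Some plasma cell genes were higher in the same samples as the lambda probes. Of 12 genes on that list 3 rose (Jchain, Irf4 and Ell2) and 0 fell, where 1.36% of all genes rose and 0.552% fell. Their median was 0.31, and their summed intensity was 9345 to 9795 on the pMIG arrays and 12058 to 12565 on the Blnk arrays. Jchain, the linker of polymeric IgM and IgA, rose from 30, 46 and 39 to 322, 462 and 522 (limma log2 fold change 3.50, adjusted p = 0.00328) and passed whichever array was left out. With 1 array left out, Ell2 passed without pMIG 1 or Blnk 1 only (limma adjusted p 0.0410 to 0.0614), and Irf4 did not pass. Prdm1, the factor that defines plasma cells, read 24 to 30 over all arrays, and Sdc1 (CD138) 88 to 117. Of 14 myeloid markers with a value, 12 had a mean below the array medians and 1 rose (Fcgr1). Their sum was 588 to 611 with pMIG and 704 to 791 with Blnk. Fcgr1 and Cd68 were the brightest genes of the myeloid sum. The mean of Fcgr1 went from 145 with pMIG to 242 with Blnk, and that of Cd68 from 93.7 to 143. Cd68 did not pass (limma adjusted p = 0.196). Of the 14 myeloid markers, 9 had a log2 fold change above 0 and 5 below, with a median of 0.04. Of 14 T and NK cell markers 8 had a mean below the array medians and 1 rose (Cd2), and the sum was 5748 to 5922 against 6368 to 6969. Il7r and Cd2 were the brightest genes of that sum, and a place on the list does not make a gene specific to those cells. The mean of Cd2 went from 1415 with pMIG to 2355 with Blnk, and that of Il7r from 3678 to 3501. Of the 14 T and NK cell markers, 7 had a log2 fold change above 0 and 7 below, with a median of 0.005. Of 7 erythroid and megakaryocyte markers 0 rose or fell by limma, also at an unadjusted p under 0.05, and the sum was 291 to 332 against 295 to 346. Neither Fcgr1 (limma adjusted p 0.0512 to 0.130) nor Cd2 (0.0623 to 0.155) passed with any 1 array left out. The part of other cells in the lambda signal was not tested. In bulk RNA, more cells with lambda transcripts and more such RNA per cell cannot be told apart.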

How the data were processed

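RNA from 6 samples was measured on Affymetrix arrays. The deposited values are linear intensities, whole numbers from 3 to 22187 per probe, and the submitters' processing notes name RMA (version not given in the sources used here). Tests used log2 of these values, with no offset. Names came from the annotation of the platform: 21789 had 1 symbol, 1621 several and 12011 were not listed and are unnamed here. Member probes were those listing a symbol that starts with Ighv, Ighd, Ighj, Igkv, Igkj, Igkc, Iglv, Iglj or Iglc, each counted once. The Blnk and pMIG groups were contrasted by limma 3.58.1 (R 4.3.3; lmFit, then eBayes) on all 35421 probes, with Benjamini-Hochberg adjustment over all of them, a two-sided threshold of 0.05, and the group as the only term. The fit was tested on simulated data. A log2 fold change is the Blnk minus the pMIG mean of log2 intensity, and intervals cover 95%. Context genes were read from their brightest single-symbol probe in the same fit.

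The rule for named probes took those past the threshold, all joining and constant segments, and the 3 brightest and 3 most changed of each locus (15 of 25). The others were named to account for every member. Members and lists were chosen with earlier results of these data known. Rounding is coarse at intensities below 16 (13.7% to 14.1% of each array's probes), and 4 members lay there on every array and 5 on at least 1. The number of arrays limits precision. Alternatives were the replicate number as a block, 2 rescalings, a filter on dim probes, a variance trend, array weights, 16 added before log2, restricted probe sets and each array left out.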

Additional observations from a re-analysis of the deposited data

How the results depend on the processing

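The 3 probes that rose kept a positive log2 fold change under every alternative run for them. For most alternatives this was fixed in advance. The groups of these probes did not overlap, so leaving out 1 array could not turn the sign. The block, the variance trend, the filter and the restricted probe sets leave the log2 fold change itself unchanged. With the replicate number as a block, 0 of the 25 segment probes passed (lambda 0, kappa 0), as did 0 probes higher and 0 lower over the whole array by limma, where an unadjusted p under 0.05 was met by 2488 in the higher direction and 1254 in the lower. Under the replicate block the log2 fold changes of the 3 probes were as before by construction, at 1.83 (limma adjusted p = 0.0637), 2.05 (0.0713) and 0.96 (0.0917). Deviations of same-numbered arrays from their group means had r of -0.14, 0.11 and -0.10. With 3 arrays per group these deviations constrain one another, so the values cannot decide if the numbers mark pairs. The labels do not say, and the main fit did not use the numbers. With 1 array left out, 0 to 2 segment probes rose, 0 to 2 of them lambda and 0 kappa throughout; pMIG 3 was the array without which 0 passed. The log2 ranges were 1.72 to 1.94 for probe 10438405, 1.93 to 2.24 for 10438415 and 0.87 to 1.06 for 10545173. Over all probes, leaving out 1 array gave 60 to 165 higher and 23 to 46 lower. Repeated quantile normalization, median centring, array weights, the variance trend and 16 added before log2 each left 3 segment probes higher. Without probes below the 40th percentile, 2 kappa probes rose, which tested fewer probes. With single-symbol probes only, or 1 probe per gene, the lambda probes were left out by construction, and 1 segment probe, Igkv10-96, rose. Counts over all probes were 729 higher and 273 lower without dim probes, 754 and 258 with the variance trend, and 610 and 212 with 16 added. They were 522 and 230 with single-symbol probes, and 500 and 220 with 1 probe per gene. Leaving out 1 array turned the sign of 8 of the 25 probes, none of which had passed. Those under the naming rule were 3, with log2 fold changes from -0.0013 to 0.17 for probe 10403015 (negative without Blnk 1), from -0.086 to 0.19 for probe 10403021 (negative without pMIG 2, pMIG 3 or Blnk 2) and from -0.054 to 0.22 for probe 10538921 (negative without Blnk 2). The other 5 were the kappa probes of Igkv4-91, Igkv4-59 with Igkv4-80, Igkv4-55, Igkv8-30, and Igkv6-14 with Igkv6-15, whose values ran from -0.22 to 0.26.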
